A study of Mus musculus with 8 samples.

Results

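The immediate early response genes Fos, Fosb, Jun, Junb, Egr1, Atf3, Ier2, Zfp36, Dusp1 and Nr4a1 were examined in mouse testis. They were taken from the deposited table by symbol, and all 10 were found among its 19906 genes. Whole testes were taken at 2 months of age from 4 Tmem232-/- and 4 Tmem232+/+ mice, and each mouse gave 1 library. Tmem232-/- mice, a purchased line, lack coding exons of Tmem232 in all cells after CRISPR-Cas9 editing of C57BL/6 oocytes, and Tmem232+/+ mice are wild-type. The comparison asks whether these genes differed between the genotypes, which bears on whether the tissues were handled alike. In a whole testis, fewer cells of a type and less RNA per cell cannot be told apart.

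Immediate early genes are transcribed soon after a stimulus from factors already present in the cell, without new protein synthesis. Growth factors, hormones, stress and the dissection of a tissue can induce them, and most of their transcripts are short-lived. The signal runs from kinases such as ERK, p38 and JNK to SRF with its ELK partners, which bind CArG boxes, and to CREB, which binds CRE sites. In the testis, NR4A1 is known as a factor that luteinizing hormone induces in Leydig cells, and spermatids use CREM, a relative of CREB.

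Each library held between 15428421 and 16350871 counts in total. Levels of a gene across libraries are given as counts per 1000000 (CPM) after TMM normalization, and levels between genes as deposited FPKM, which is per length. Differences were tested with edgeR, and genes were called at a Benjamini-Hochberg adjusted p under 0.05 across the 15787 that were tested. Tmem232 had 122 to 148 CPM in the libraries labelled Tmem232-/- and 106 to 111 CPM in those labelled Tmem232+/+, so its count did not verify the labels. The table gives a single count per gene, and reads from the deleted exons were not separated. Directions below therefore rest on the labels, and all fold changes are those of the libraries labelled Tmem232-/- over those labelled Tmem232+/+.

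For 4 of the genes, the stretch before a transcript start is printed from the RefSeq promoter table of GRCm38.p6, which gives 1 start for each of them. The start of Nr4a1 in that table is an internal one, since the gene begins at 101253902 in RefSeq and at 101254269 in GENCODE, upstream of the whole stretch. That of Fosb is also not the outermost, since the RefSeq gene reaches 19310118 and so covers part of the stretch. The stretch of Dusp1 lies within the span of the GENCODE gene. Nr4a1 and Dusp1 were called higher in the libraries labelled Tmem232-/-, Fosb came next in size and Fos had like means under both labels. Bases inside any GENCODE exon were left out at the end nearest the start, and capitals mark the matches of a motif search.
Nr4a1, chr15:101266596-101266845, plus strand: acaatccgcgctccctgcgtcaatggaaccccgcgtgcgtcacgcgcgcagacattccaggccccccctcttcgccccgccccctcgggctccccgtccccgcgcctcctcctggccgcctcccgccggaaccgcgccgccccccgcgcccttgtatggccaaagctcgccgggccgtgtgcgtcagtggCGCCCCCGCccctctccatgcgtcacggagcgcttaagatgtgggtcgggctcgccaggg
Dusp1, chr17:26508520-26508722, minus strand: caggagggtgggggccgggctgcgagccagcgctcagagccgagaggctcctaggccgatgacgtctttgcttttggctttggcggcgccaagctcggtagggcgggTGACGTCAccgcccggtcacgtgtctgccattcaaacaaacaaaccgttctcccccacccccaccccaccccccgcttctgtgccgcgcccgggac
Fosb, chr7:19310052-19310295, minus strand: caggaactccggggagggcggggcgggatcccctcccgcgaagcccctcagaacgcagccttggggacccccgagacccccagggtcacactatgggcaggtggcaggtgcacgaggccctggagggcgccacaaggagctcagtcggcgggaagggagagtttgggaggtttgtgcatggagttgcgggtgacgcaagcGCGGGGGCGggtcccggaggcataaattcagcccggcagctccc
Fos, chr12:85473640-85473889, plus strand: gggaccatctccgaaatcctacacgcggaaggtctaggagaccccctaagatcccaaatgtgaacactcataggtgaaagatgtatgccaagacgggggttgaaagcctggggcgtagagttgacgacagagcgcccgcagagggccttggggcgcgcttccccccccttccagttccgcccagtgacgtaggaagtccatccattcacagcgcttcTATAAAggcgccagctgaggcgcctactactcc

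The search covered both strands of the 250 bases before these transcript starts for 8 of the genes, without Egr1 and Ier2, and positions are counted from them. A full CRE (TGACGTCA) was found before Dusp1 alone, from -143 to -136, and 1.55% of all 32851 promoters in the table hold it. An EGR site (GCGNGGGCG) stood from -60 to -52 for Nr4a1, from -50 to -42 for Fosb and from -105 to -97 for Zfp36, and 4.70% of all promoters hold it. The sites of Nr4a1 and Fosb lie within the RefSeq genes, and the Zfp36 window lies within the GENCODE gene, which reaches 28380253. Within these windows, a CArG box was found before Zfp36 alone, from -58 to -49, beside 1.47% of all promoters. Sites of any motif farther upstream were not searched. The letters TATAAA of a TATA box stood before Fos alone, from -33 to -28, beside 12.4% of all promoters. The AP-1 site (TGANTCA) was in 0 of the 8 windows and in 6.75% of all promoters. None of the matches in these windows overlapped another, and each is a description of letters only.

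Nr4a1 and Dusp1 were higher in the libraries labelled Tmem232-/-, by 1.88-fold and 1.78-fold. Among the 9 genes that passed the filter on low counts, these 2 were called higher and 0 were called lower, while 10.3% of all tested genes were called higher and 1.46% lower. At an unadjusted p under 0.05, edgeR gave 3 higher and 0 lower, beside 14.6% and 10.5% of all tested genes. DESeq2 also gave 3 and 0 at an unadjusted p under 0.05 and called the same numbers of 2 and 0 after adjustment. Fos, Jun, Junb, Egr1, Ier2 and Zfp36 had log2 fold changes between -0.12 and 0.05 and were not called. Fosb lay between these and the called genes, and Atf3 was too low to be tested. The median log2 fold change of the 9 genes was 0.02, beside -0.05 over all tested genes.

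**Figure D1:**
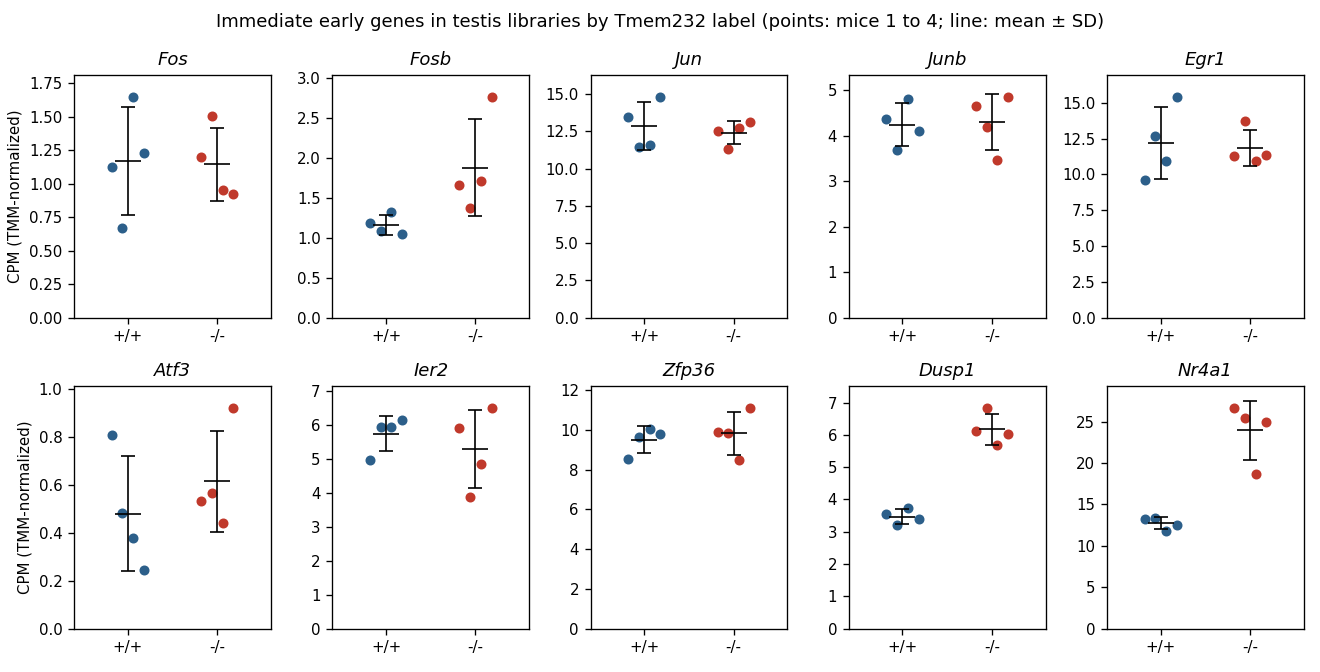
TMM-normalized CPM (vertical axes, from 0) of each immediate early gene in the 4 libraries labelled Tmem232+/+ and the 4 labelled Tmem232-/-, with the mean and SD as bars. The labels do not overlap for Fosb, Dusp1 and Nr4a1, and they overlap for the other 7 genes. Among all tested genes, 11.8% did not overlap with the label Tmem232-/- higher, and 6.88% with it lower.

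Nr4a1 (Entrez ID 15370, chromosome 15) encodes the orphan nuclear receptor NUR77. Mice 1 to 4 labelled Tmem232-/- gave 26.7, 25.5, 18.7 and 24.9 CPM, and those labelled Tmem232+/+ gave 13.2, 13.4, 11.8 and 12.5 CPM. Every library of the first label was above every library of the second, and mouse 3 was the lowest within each label. The means were 23.9 ± 3.59 CPM (SD, n = 4) and 12.7 ± 0.736 CPM (SD, n = 4). This was a log2 fold change of 0.91 (standard error, SE, 0.117, 95% interval 0.66 to 1.17, edgeR adjusted p = 0.00026). Its counts lay between 186 and 406 per library.

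Dusp1 (Entrez ID 19252, chromosome 17, which also carries Tmem232) encodes a nuclear phosphatase that inactivates p38, JNK and ERK, the kinases that induce early genes. Its levels were 6.12, 6.84, 5.69 and 6.03 CPM in mice 1 to 4 labelled Tmem232-/-, and 3.55, 3.21, 3.74 and 3.38 CPM in those labelled Tmem232+/+. The labels did not overlap, and within them the highest library was 1.20 and 1.16 times the lowest. The means were 6.17 ± 0.484 CPM (SD, n = 4) and 3.47 ± 0.227 CPM (SD, n = 4). The log2 fold change was 0.83 (SE 0.124, 95% interval 0.56 to 1.10, edgeR adjusted p = 0.00077). For both Nr4a1 and Dusp1, the exact permutation test over 70 arrangements gave a two-sided p of 0.029, the smallest that 4 mice against 4 allow, unadjusted for the 10 genes tested in this way.

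The loci behind the counts were compared with the annotation of GRCm38.p6. Jun, Zfp36 and Dusp1 are listed on the plus strand in the deposited table, while GENCODE has these 3 genes on the minus strand. The deposited locus of Dusp1 runs from 26505591 to 26511395, beyond the RefSeq gene, which ends at 26508472, but within the GENCODE gene, which spans 26505590 to 26562128. That of Jun runs from 95047647 to 95167319 on chromosome 4 and takes in the antisense gene Junos, while RefSeq gives 95049036 to 95052222. It also overlaps Gm12703 and 4930551L18Rik, on the same strand as Jun, and n-R5s189 and Gm28096, on the strand of Junos. That of Zfp36 runs from 28376569 to 28380284 on chromosome 7 and overlaps the antisense gene Gm44710. Whether the counting used strand was not given in the sources used here, so reads of Jun and Zfp36 and of these antisense genes cannot be told apart. Strand would not separate reads of Gm12703 and 4930551L18Rik from those of Jun.

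FOS and JUN proteins pair through leucine zippers to form AP-1, the transcription factor most closely tied to the early response. Fos (Entrez ID 14281, chr12:85473901-85477269) had 1.20, 1.51, 0.949 and 0.922 CPM in mice 1 to 4 labelled Tmem232-/-, and 1.12, 0.666, 1.65 and 1.23 CPM in those labelled Tmem232+/+. The range of the first label lay inside that of the second. Its log2 fold change was -0.02 (SE 0.295, edgeR adjusted p = 0.968). At 11 to 26 counts per library, its 95% interval reached from a fold change of 0.627 to 1.54, a range of differences that these counts did not exclude.

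Fosb (Entrez ID 14282, chr7:19302696-19310226) encodes a relative of FOS. Its levels were 1.66, 1.38, 1.71 and 2.77 CPM in mice 1 to 4 labelled Tmem232-/- and 1.18, 1.09, 1.33 and 1.04 CPM in those labelled Tmem232+/+. The labels did not overlap, as for 11.8% of all tested genes in this direction and 6.88% in the other, and mouse 4 labelled Tmem232-/- stood above the rest. The log2 fold change was 0.69 (SE 0.25, 95% interval 0.15 to 1.24), and the adjusted p of 0.108 from edgeR did not pass. The exact permutation test gave a two-sided p of 0.029, and 0.057 with libraries scaled by their totals alone. Without mouse 4 labelled Tmem232-/- the log2 fold change of Fosb was 0.46 (edgeR adjusted p = 0.202), and its counts were between 17 and 45.

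Jun (Entrez ID 16476) encodes the main partner of FOS. Its levels were 12.5, 11.3, 12.7 and 13.1 CPM in mice 1 to 4 labelled Tmem232-/- and 13.5, 11.4, 11.6 and 14.8 CPM in those labelled Tmem232+/+. The labels overlapped, and the log2 fold change was -0.05 (95% interval -0.29 to 0.19, edgeR adjusted p = 0.818). These bounds are fold changes of 0.819 and 1.14.

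Junb (Entrez ID 16477, chr8:84976909-84978748), which can restrain JUN, had 4.66, 4.21, 3.48 and 4.86 CPM in the first label and 4.36, 3.69, 4.81 and 4.11 CPM in the second. The ranges overlapped almost wholly. Its log2 fold change was 0.02 (95% interval -0.31 to 0.35, edgeR adjusted p = 0.952) and took the other sign, at -0.01, when libraries were scaled by their totals alone.

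Atf3 (Entrez ID 11910, chr1:191170296-191183333) encodes a stress-induced bZIP protein that can repress its targets. It had 8, 9, 7 and 15 counts in mice 1 to 4 labelled Tmem232-/- and 13, 8, 6 and 4 counts in those labelled Tmem232+/+, and the labels overlapped. In the edgeR fit without a filter on low counts, the log2 fold change was 0.40 (95% interval -0.49 to 1.29, adjusted p = 0.646 over 19874 genes).

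Egr1 (Entrez ID 13653, chr18:34861207-34864956) encodes a zinc finger factor that is induced together with Fos in many tissues. Its levels were 11.3, 13.7, 10.9 and 11.4 CPM in mice 1 to 4 labelled Tmem232-/- and 9.60, 12.7, 10.96 and 15.4 CPM in those labelled Tmem232+/+. The libraries of the first label fell inside the range of the second, which was the wider. Fitted over all 8 libraries, the log2 fold change was -0.04 (95% interval -0.36 to 0.28, edgeR adjusted p = 0.890).

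Ier2 (Entrez ID 15936, chr8:84661331-84662852) encodes a small nuclear regulator. It had 5.92, 3.89, 4.87 and 6.52 CPM in the first label and 4.98, 5.93, 5.95 and 6.14 CPM in the second. The first label held both the highest and the lowest library. Its mean was the lower in the first label, with a log2 fold change of -0.12 (95% interval -0.48 to 0.25, edgeR adjusted p = 0.694).

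Zfp36 (Entrez ID 22695) encodes tristetraprolin, which binds AU-rich elements in transcripts such as that of Fos and speeds their decay. Its levels were 9.92, 9.85, 8.47 and 11.1 CPM in mice 1 to 4 labelled Tmem232-/- and 8.54, 9.63, 10.1 and 9.83 CPM in those labelled Tmem232+/+. The first label again held both the highest and the lowest library. This gave a log2 fold change of 0.05 (95% interval -0.20 to 0.30, edgeR adjusted p = 0.818).

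**Figure D2:**
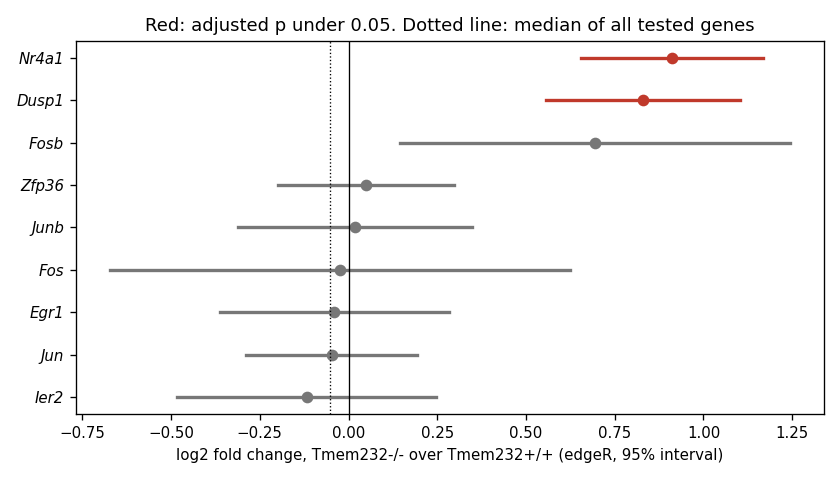
Fitted log2 fold change of the 9 tested genes (horizontal axis, libraries labelled Tmem232-/- over Tmem232+/+) with its 95% interval as a line. The intervals of Nr4a1 and Dusp1 start at 0.66 and 0.56, that of Fosb starts at 0.15, and those of the other 6 genes include 0.

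Per length, these genes had low to middle levels in testis. Nr4a1 led with a mean of 7.85 FPKM over the 8 libraries, below the median of 8.998 FPKM over all tested genes. Zfp36 followed with 6.08 FPKM, and Nr4a1 was above it in 5 of 8 libraries. Jun (4.18 FPKM), Egr1 (4.15 FPKM) and Ier2 (4.10 FPKM) had overlapping ranges and could not be ordered. The order of Dusp1 (2.72 FPKM) and Junb (2.56 FPKM) turned with the label. Dusp1 was the higher in all 4 libraries labelled Tmem232-/- (3.17 to 3.81 against 2.05 to 2.95 FPKM). It was the lower in all 4 labelled Tmem232+/+ (1.87 to 2.16 against 2.28 to 2.95 FPKM). Fos (0.601 FPKM), Fosb (0.436 FPKM) and Atf3 (0.305 FPKM) were the lowest, and each overlapped its neighbour. Ranges did not meet between Zfp36 and Jun or between Junb and Fos, where all 8 libraries kept the order. Nr4a1 was first under the label Tmem232-/- (10.2 ± 1.53 FPKM, SD, n = 4) and second to Zfp36 under the label Tmem232+/+ (5.50 ± 0.298 against 6.05 ± 0.544 FPKM, SD, n = 4).

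**Figure D3:**
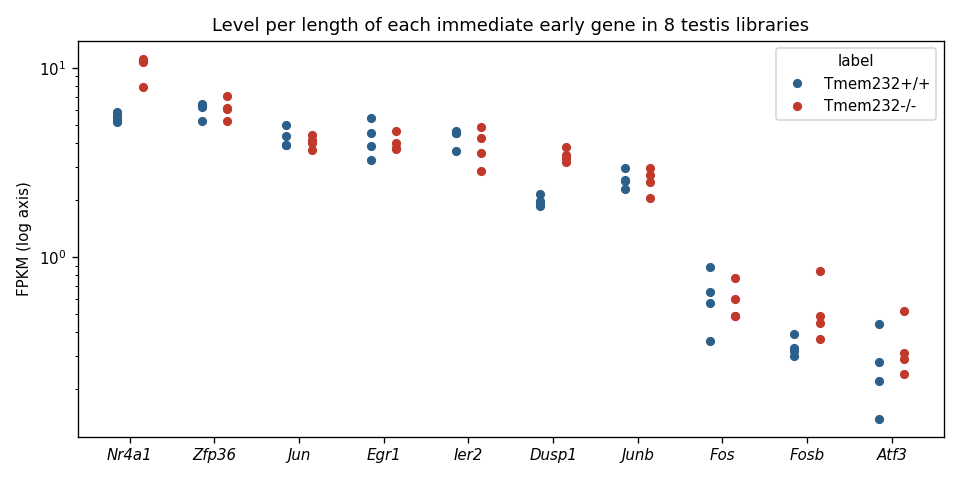
Deposited FPKM (log axis) of each gene in the 4 libraries labelled Tmem232+/+ and the 4 labelled Tmem232-/-, in the order of the mean over all 8. The order runs from Nr4a1 with 7.85 FPKM to Atf3 with 0.305 FPKM, and the labels are apart for Nr4a1 and Dusp1.

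Shares of the summed FPKM within a library do not depend on the scaling between libraries. They were computed after the values were seen and were not tested. Nr4a1 made up 28.4% ± 2.31 (SD, n = 4) of the sum over the 10 genes in the libraries labelled Tmem232-/- and 18.3% ± 1.70 (SD, n = 4) in those labelled Tmem232+/+. Dusp1 made up 9.68% ± 0.897 and 6.59% ± 0.548 (SD, n = 4), and neither share overlapped between the labels. Since the shares of a library sum to 100%, others were lower, and those of Zfp36 (16.5% to 17.9% against 18.8% to 21.1%), Ier2 (7.96% to 12.4% against 12.9% to 15.02%) and Junb (6.61% to 7.47% against 7.56% to 9.66%) did not overlap either. The summed FPKM of the other 8 genes was 22.1 ± 2.21 and 22.7 ± 1.86 (SD, n = 4), with ranges of 19.9 to 25.1 and 20.4 to 24.9.

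The spread of these genes between mice of a label was near that of other genes of like level. The biological coefficient of variation fitted by edgeR was highest for Fos at 20.2% and lowest for Dusp1 at 9.54%. The median of the 9 tested genes was 12.0%, beside 13.5% over the 6253 tested genes whose mean CPM lay in the same range, and 4 of the 9 were above that value. Among the libraries labelled Tmem232-/-, mouse 4 was the highest for 6 of the 10 genes, namely Fosb, Jun, Junb, Atf3, Ier2 and Zfp36, while it was the highest for 29.2% of all tested genes and 35.6% of those of like level. Mouse 3 was the lowest for 6 of the 10, namely Junb, Egr1, Atf3, Zfp36, Dusp1 and Nr4a1, beside 27.0% of all tested genes. Among the libraries labelled Tmem232+/+, mouse 3 was the highest for Fos, Fosb, Junb, Zfp36 and Dusp1, beside 36.0% of all tested genes and 34.7% of those of like level, and the lowest for Nr4a1.

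After centring within each label, the 10 genes had a median r of 0.10 over their 45 pairs, of which 31 were above 0. The pairs ran from -0.60 for Atf3 and Egr1 to 0.86 for Dusp1 and Fos. With the same centring, the genes most like the 10 by their mean Pearson r across the 8 libraries, among 15054 other genes, were Bdh1 (0.48), Dydc2 (0.47), 1700080E11Rik (0.47), Mall (0.47) and Hddc3 (0.47). With single genes of the 10, r ran from 0.049 to 0.91 for Bdh1, from -0.0084 to 0.92 for Dydc2 and from 0.088 to 0.85 for 1700080E11Rik. It ran from 0.19 to 0.90 for Mall and from 0.22 to 0.87 for Hddc3. A high mean therefore did not stand for a like r with each of the 10. Genes compared needed a mean of at least 1 CPM. 1700080E11Rik had 1 to 3 counts in each library labelled Tmem232+/+, so its r rests mostly on those labelled Tmem232-/-. It and Dydc2 were called higher, with log2 fold changes of 4.80 and 1.29 (edgeR adjusted p = 2.7e-05 and 0.0093). Bdh1, Mall and Hddc3 were not called. These correlations describe 8 libraries that share their depth and composition across all genes.

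The wider early response was followed through 106 genes in 6 lists by role, of which 101 were tested. Of these, 7 were called higher and 2 lower by edgeR, and 92 were not called. Over all tested genes the shares were 10.3% higher and 1.46% lower, against which each count of calls below is to be read. Counts at an unadjusted p under 0.05 in edgeR are to be read against 14.6% higher and 10.5% lower.

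Of 17 other early transcription factors and co-regulators, 4 were called higher and 0 lower by edgeR and by DESeq2, with 6 higher and 1 lower at an unadjusted p under 0.05 in edgeR. The list had a median log2 fold change of -0.10. Egr3, a relative of Egr1, had 16.1, 16.5, 12.8 and 15.1 CPM in mice 1 to 4 labelled Tmem232-/- and 5.11, 3.996, 6.65 and 5.65 CPM in those labelled Tmem232+/+. Its labels were far apart, with a log2 fold change of 1.499 (SE 0.152, edgeR adjusted p = 6.4e-05). Nr4a3, a relative of Nr4a1, had 4.93, 5.46, 4.81 and 3.81 CPM in the first label and 2.68, 2.66, 2.41 and 2.33 CPM in the second. Its log2 fold change was 0.91 (SE 0.153, edgeR adjusted p = 0.0018), and the labels did not overlap.

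Klf4, a zinc finger factor known in round spermatids, averaged 123 ± 17.2 CPM (SD, n = 4) under the label Tmem232-/- and 67.8 ± 5.57 CPM (SD, n = 4) under the other. Its log2 fold change was 0.86 (SE 0.104, edgeR adjusted p = 0.00018). Csrnp1, a nuclear protein, had a log2 fold change of 0.45 (SE 0.103, edgeR adjusted p = 0.0135), but only 0.20 on log2(FPKM + 1), where it was not called (limma adjusted p = 0.213). Its implied transcript length was 3.27 and 2.83 kb under the labels Tmem232-/- and Tmem232+/+. Nab2, a co-repressor of EGR proteins, had -0.22 (edgeR adjusted p = 0.200). The remaining relatives were named after their values were seen. Egr2 had a log2 fold change of -1.05 that did not pass (edgeR adjusted p = 0.0716) and is uncertain, since its deposited locus runs from 308976 to 67547493 on chromosome 10, far beyond a single gene. The transcript length that its counts and FPKM imply was 3.53 kb under the label Tmem232-/- and 5.56 kb under the other, and its FPKM were 0.168 ± 0.0866 and 0.225 ± 0.0661 (SD, n = 4). Egr4 had -0.29 and Nr4a2 had -0.10, and neither passed.

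Of 18 feedback inhibitors, 2 were called higher and 0 lower by edgeR, with 3 higher and 1 lower at an unadjusted p under 0.05, and DESeq2 called 3 higher and 0 lower. Both genes called by edgeR encode MAP kinase phosphatases like Dusp1. Dusp10, which acts on p38 and JNK, had 15.5, 12.1, 11.6 and 12.9 CPM in mice 1 to 4 labelled Tmem232-/- and 4.11, 3.09, 5.89 and 5.47 CPM in those labelled Tmem232+/+. Its log2 fold change was 1.49 (SE 0.186, edgeR adjusted p = 0.00022). Dusp4, a nuclear phosphatase, had 7.25, 7.85, 6.77 and 5.04 CPM in the first label and 2.93, 2.79, 3.80 and 2.89 CPM in the second. Its log2 fold change was 1.12 (SE 0.171, edgeR adjusted p = 0.00091), and neither phosphatase overlapped between the labels. The other phosphatases of the list, Dusp2, Dusp5, Dusp6, Dusp8 and Dusp16, had log2 fold changes between -0.41 and 0.50 and were not called. Zfp36l1, a relative of Zfp36, had 0.29 (edgeR adjusted p = 0.0816), and Nfkbia, the inhibitor of NF-kB, had -0.14.

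**Figure D4:**
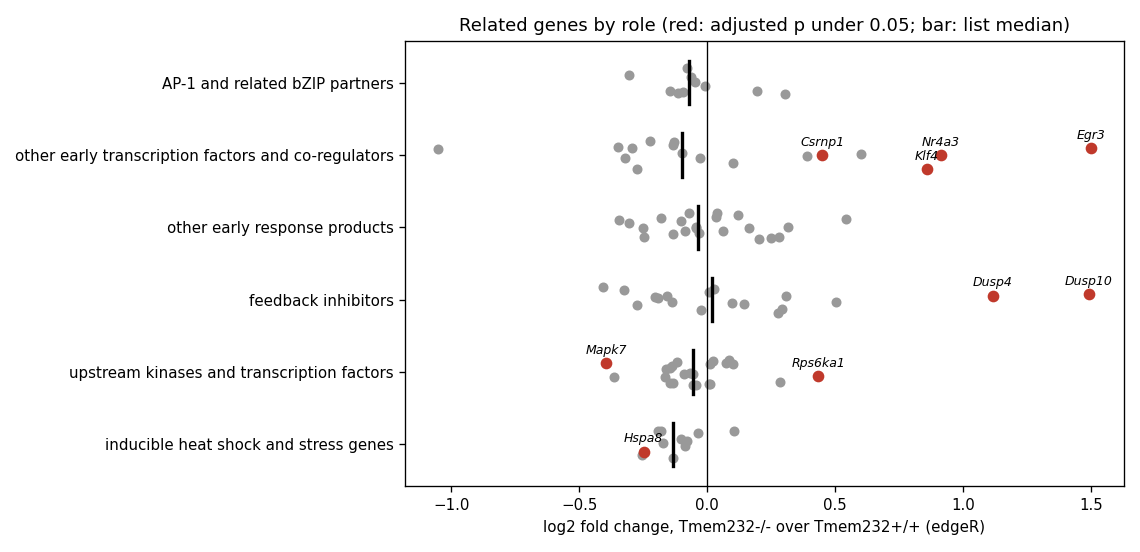
Fitted log2 fold change (horizontal axis, libraries labelled Tmem232-/- over Tmem232+/+) of each tested gene in 6 lists by role, 1 point per gene, with list medians marked. The 7 genes called higher and the 2 called lower carry their names, and the medians lie between -0.13 and 0.02.

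Of 10 other AP-1 and bZIP partners, 0 were called by edgeR or DESeq2 and 0 passed at an unadjusted p under 0.05, with a median log2 fold change of -0.07. The most abundant were Atf4 and Atf2, with 43.6 and 40.0 FPKM and log2 fold changes of -0.11 and -0.06. Of 22 other early response products, 0 were called by edgeR or DESeq2, with 3 higher and 0 lower at an unadjusted p under 0.05. Arc and Mcl1 led these in level, with log2 fold changes of -0.03 and -0.04, which became 0.011 and 0.00020 in the fit without a filter.

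Of 23 upstream kinases and transcription factors, edgeR called 1 higher and 1 lower, with 2 higher and 2 lower at an unadjusted p under 0.05, and DESeq2 called 2 higher and 1 lower. Rps6ka1, a kinase that ERK activates, had a log2 fold change of 0.43 (SE 0.0938, edgeR adjusted p = 0.0095). Mapk7, which encodes ERK5, fell by 0.40 on the log2 scale (SE 0.0760, edgeR adjusted p = 0.0043). Mapk3, which encodes ERK1, had 0.01, and -0.03 with libraries scaled by their totals alone. Crem had 201 ± 22.6 and 165 ± 13.7 CPM (SD, n = 4) without overlap and a log2 fold change of 0.28 (edgeR adjusted p = 0.0716).

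Of 11 inducible heat shock and stress genes, 0 were called higher and 1 lower, with 0 higher and 2 lower at an unadjusted p under 0.05 in edgeR. The log2 fold change was below 0 for 10 of the 11, with a median of -0.13. Hspa8, a largely constitutive chaperone, fell by 0.25 on the log2 scale (edgeR adjusted p = 0.0444), a call that was lost in 12 of 17 alternatives. Its log2 fold change stayed between -0.28 and -0.21 in all of them. Hsp90aa1 had -0.08 (edgeR adjusted p = 0.507).

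Germ cell markers moved with the labels beside these results. Of 6 round spermatid markers 5 were called higher by edgeR, with a summed CPM of 653 to 791 in the libraries labelled Tmem232-/- and 336 to 458 in the others. All 6 elongating spermatid markers were called higher, with a summed CPM of 620 to 1222 and 122 to 271. Of 7 spermatogonial markers 3 were called lower, with 201 to 220 and 236 to 252 CPM in sum, while 1 was higher and 4 lower at an unadjusted p under 0.05 in edgeR. The higher one was Gfra1, with a log2 fold change of 0.42 (edgeR adjusted p = 0.101), named after its value was seen. Of 7 spermatocyte markers 1 was called lower, with 0 higher and 3 lower at an unadjusted p under 0.05 in edgeR and 2020 to 2576 and 2367 to 2668 CPM in sum. All 7 had a log2 fold change below 0, with a median of -0.13. The part of these shifts in Nr4a1, Dusp1 and the other called early genes was not tested.

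Leydig cell markers were set beside Nr4a1. Of 6 markers 0 were called by edgeR, while 5 were higher at an unadjusted p under 0.05, DESeq2 called 2 higher and limma-voom 1. Their median log2 fold change was 0.47, from -0.02 for Insl3 to 0.95 for Lhcgr, and their summed CPM of 398 to 566 and 252 to 433 overlapped. The steroidogenic enzyme gene Cyp17a1 was named after its values were seen. In mouse 1 labelled Tmem232+/+ it was at 22.1 CPM, while the other libraries of that label had 77.5 to 87.0 CPM. Cyp11a1, Star and Insl3 were also lowest of that label in mouse 1, but Hsd3b1 (64.2 CPM) and Lhcgr (5.89 CPM) were lowest in mouse 3. Nr4a1 had 13.2, 13.4, 11.8 and 12.5 CPM in mice 1 to 4 labelled Tmem232+/+. The part of Leydig cells in the level of Nr4a1 was not tested.

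Of the other somatic lists, peritubular myoid markers were called lower in 2 of 5 by edgeR and DESeq2 and were lower in 4 at an unadjusted p under 0.05, with a summed CPM of 197 to 236 and 250 to 296. Sertoli cell markers were called in 0 of 8 by edgeR and DESeq2, with 0 higher and 2 lower at an unadjusted p under 0.05, and endothelial markers in 0 of 6, with 0 higher and 1 lower. Macrophage markers (0 of 7) and red blood cell markers (0 of 5) had 0 at an unadjusted p under 0.05 in edgeR and 0 in DESeq2. Red blood cell markers ranged from 150 to 596 CPM in sum under the label Tmem232-/- and from 305 to 595 CPM under the other. All 5 had a log2 fold change below 0, with a median of -0.63. The log2 fold change was also below 0 for all 5 peritubular myoid and 7 of 8 Sertoli cell markers. It was below 0 for 4 of 6 endothelial and 3 of 7 macrophage markers. Of 4 epididymis genes present, 1 was tested and was not called. The part of these cell types in the early genes was not tested.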

How the data were processed

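RNA from 8 whole testes was made into TruSeq libraries and sequenced. The submitters' processing notes name HISAT, Bowtie2, StringTie, featureCounts, DESeq2 and GRCm38.p6, without versions. The authors deposited an estimated count per gene and library without normalization, of which 10.7% to 11.2% are not whole. A second set of columns deposited by the authors was taken as FPKM (per kilobase and 1000000 counts), a unit inferred from its values. The authors also deposited a log2 fold change, a p-value and a q-value per gene and averages per genotype, and none of these was used.

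After rounding, the counts were fitted with edgeR 4.0.16 under R 4.3.3 (filterByExpr, TMM, quasi-likelihood test, Benjamini-Hochberg adjustment over 15787 genes). Alternatives were DESeq2 1.42.0, limma 3.58.1 with voom or on log2(FPKM + 1), other scalings and filters, a replicate block and leaving out each library. Scripts were tested on simulated data. Single genes were also tested by an exact permutation of TMM-normalized CPM, two-sided. Likeness used log2(CPM + 1).

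All 10 early genes are named. From each role list, up to 4 called genes with the largest change and the 2 with the highest FPKM are named. The genes and lists were chosen with earlier results of these data known. The mice are separate animals, and 95% intervals come from the fits.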

Additional observations from a re-analysis of the deposited data

Results flagged for a closer look

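Of 92 groups of 4 libraries examined, 5 held a library far from the other 3 by Dixon's ratio, where chance alone gives about 1 in 20 groups, or 4.6. Among the early genes this was Egr1, which was highest in replicate 2 labelled Tmem232-/- with 13.7 CPM, while the next library had 11.4 CPM. Atf2 was lowest in replicate 3 labelled Tmem232+/+ with 156 CPM, beside 168 to 169 CPM in the others of that label. Klf4 was lowest in replicate 2 labelled Tmem232+/+ with 59.5 CPM, beside 69.98 to 71.4 CPM. Dusp4 was highest in replicate 3 labelled Tmem232+/+ with 3.80 CPM, and the next library had 2.93 CPM. The summed CPM of red blood cell markers was lowest in that same library at 305 CPM, with 546 CPM in the next.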

How the results depend on the processing

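Nr4a1 and Dusp1 were the called genes under all 17 alternatives by count, with 2 of the early genes higher and 0 lower in each. Leaving out 1 library at a time gave log2 fold changes of 0.86 to 1.01 for Nr4a1 and 0.78 to 0.90 for Dusp1. The other alternatives on counts gave 0.88 to 0.95 and 0.80 to 0.87. On log2(FPKM + 1) the differences were 0.77 and 0.57, where the added 1 shrinks a change at low FPKM. The adjusted p-values over all alternatives ran from 4.5e-11 to 0.0017 and from 1.9e-05 to 0.0104 across edgeR, DESeq2 and limma. Fosb passed under none, with 0.46 to 0.82 when a library was left out and 0.64 to 0.74 in the other alternatives on counts. On log2(FPKM + 1) its difference was 0.19, shrunk by the added 1, since its means were 0.538 and 0.335 FPKM under the labels Tmem232-/- and Tmem232+/+. The genes near 0 changed sign without being called. Without a filter on low counts, Fos had 0.017, Egr1 0.0040, Arc 0.011 and Mcl1 0.00020. With limma-voom Fos had 0.018. With library size alone Junb had -0.014 and Mapk3 -0.026, and on FPKM they had -0.013 and -0.029. The permutation p of Junb was 0.857 with library size alone. Leaving out 1 library gave -0.22 to 0.22 for Fos, -0.10 to 0.028 for Jun, -0.043 to 0.12 for Junb, -0.12 to 0.094 for Egr1, -0.22 to 0.0048 for Ier2, -0.0042 to 0.11 for Zfp36, -0.067 to 0.044 for Arc and -0.027 to 0.068 for Mapk3. The causes were not tested.

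Calls in the role lists moved by at most 1 gene. Hspa8 was lost, leaving 0 stress genes lower, under 12 alternatives, including 7 of the 8 that leave out a library, all but replicate 4 labelled Tmem232-/-. The log2 fold change of Hspa8 stayed between -0.28 and -0.21 in all alternatives, beside -0.25 in the main fit. Csrnp1 was lost on FPKM, and Zfp36l1 and Crem were gained in 3 alternatives each. Over all genes, higher calls ranged from 1317 to 1824 and lower calls from 28 to 466 among the 9 alternatives that kept all libraries, beside 1633 and 230. The median of all genes was -0.05 with TMM and -0.09 with library size alone.

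Replicate numbers did not pair the samples, since same-numbered libraries had correlations of -0.06, 0.07, -0.33 and -0.11. With the replicate block, 2 early genes were higher and 0 lower, and 1317 of all genes were higher and 28 lower. Depth limits Fos, Fosb and Atf3, which had 45 counts or fewer in every library.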
